A study of Mus musculus with 4 samples.

Results

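The genes of cholesterol and fatty acid synthesis were followed in mouse epiblast stem cells after knockdown of Tox4, which encodes a chromatin-associated HMG-box protein. The set was drawn up by symbol: 31 genes, of which 30 were matched among the 15429 genes of the table. The matched genes are 4 regulators of the pathway, 16 enzymes of cholesterol synthesis, the sterol transport gene Stard4, and 9 enzymes of fatty acid synthesis and desaturation. Insig1 was not analysed here. Msmo1 is listed under its older symbol Sc4mol.

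Epiblast stem cells are pluripotent cells derived from the embryo after implantation. All 4 libraries came from the line OE7, which carries the Oct4-Gip reporter transgene, at passages 21 to 25, and the cells were kept on fibronectin in N2B27 with Activin A (20 ng/ml) and Fgf2 (12 ng/ml). The control group received Luc esiRNA (n = 2) and the other group Tox4 esiRNA (n = 2), in each case 1000 ng of esiRNA, a pool of short interfering RNAs, with 2 µl of lipofectamine. Poly(A) RNA was sequenced, and the labels do not say that the libraries of a group were separate cultures, so that a p-value here takes in the spread of these libraries alone, and that spread may be technical. Both groups come from 1 cell line, and the knockdown was partial. Tox4 was at 16.7 and 17.5 FPKM (fragments scaled to gene length and library depth) in the Luc libraries. In the Tox4 libraries it was at 8.65 and 8.89 FPKM. The difference on log2(FPKM + 1) was -0.89 (limma adjusted p = 0.00228), and it was -0.96 with 0.1 in place of 1 added. The smallest whole read numbers that fit the FPKM values came to 12778044 to 19008803 per library. Exons of Tox4 overlap those of Mettl3 on the other strand.

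Sterol synthesis turns acetyl-CoA into mevalonate, mevalonate into squalene, and squalene by way of lanosterol into cholesterol. Fatty acid synthesis uses the same acetyl-CoA. Both branches are driven by the SREBP transcription factors, made as membrane proteins of the endoplasmic reticulum. When sterols are scarce, the escort protein Scap carries them to the Golgi, where proteases release the active part; when sterols are plentiful, the Insig proteins hold Scap back. The protein of Srebf2 acts mainly on sterol genes, and that of Srebf1, in its liver form, mainly on fatty acid genes.

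The promoters of most sterol genes hold a sequence feature that the selection did not use. NF-Y, a factor known to act together with SREBP, binds the CCAAT box. The letters CCAAT were searched on both strands of the 250 bases before each start in the RefSeq promoter table (GRCm38.p6), which held 31 windows for 23 of the genes. Among cholesterol synthesis genes 12 of 16 windows (75%) held CCAAT and 9 (56.2%) held it at least 2 times. Over all 32851 promoter windows these shares were 33.8% and 10.1%. Among fatty acid genes 2 of 6 windows held it (33.3%), and among the regulators 4 of 9 (44.4%). By gene, a match in any window was found for 12 of 13 cholesterol synthesis genes, 2 of 6 fatty acid genes and 3 of 4 regulators. The share by gene over all promoters was not worked out, so these counts have no background beside them. Fdps, Fdft1, Sqle, Stard4, Scd1, Scd2 and Fads1 had no window under their symbols. The core of the classical sterol regulatory element, searched on both strands as TCACNCCAC, was found in 1 window, that of Hmgcs1, and in 1.05% of all windows. The E-box CACGTG was in 4 of the 31 windows (12.9%), against 6.02% of all. A match of letters is a description and not a binding site, and windows of 1 gene can overlap. The table listed 2 windows for Pmvk and 3 for Insig2, and those without CCAAT are not shown. CCAAT and its reverse complement overlap by a pair of bases in Fasn, where they were counted separately.

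The promoters of 5 genes are shown for the range of this feature. Pmvk is the enzyme gene that fell and Insig2 the gene nearest to the threshold; Hmgcs1 holds the sterol element, Mvk the most CCAAT boxes, and Fasn is the fatty acid synthase. They lie at chr3:89454291-89454540 (Pmvk, plus strand), chr1:121332590-121332839 (Insig2, minus strand), chr13:119690101-119690350 (Hmgcs1, plus strand), chr5:114444019-114444268 (Mvk, plus strand) and chr11:120824548-120824797 (Fasn, minus strand). Each is written 5′ to 3′ on the strand of the gene, and capitals mark CCAAT or ATTGG and, in Hmgcs1, also the sterol element.
Pmvk: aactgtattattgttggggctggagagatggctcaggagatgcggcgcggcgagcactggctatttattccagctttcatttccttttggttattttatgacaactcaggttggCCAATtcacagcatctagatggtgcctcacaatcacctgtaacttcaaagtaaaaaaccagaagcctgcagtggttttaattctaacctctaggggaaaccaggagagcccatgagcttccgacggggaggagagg
Insig2: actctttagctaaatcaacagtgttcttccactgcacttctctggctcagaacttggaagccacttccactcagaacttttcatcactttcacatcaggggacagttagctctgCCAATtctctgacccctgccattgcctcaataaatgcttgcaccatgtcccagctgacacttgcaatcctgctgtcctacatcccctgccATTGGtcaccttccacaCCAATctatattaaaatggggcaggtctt
Hmgcs1: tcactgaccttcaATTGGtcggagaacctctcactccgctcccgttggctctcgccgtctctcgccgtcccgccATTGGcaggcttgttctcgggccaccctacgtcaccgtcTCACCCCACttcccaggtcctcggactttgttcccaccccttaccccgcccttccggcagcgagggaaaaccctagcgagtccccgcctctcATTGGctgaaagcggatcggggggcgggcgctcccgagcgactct
Mvk: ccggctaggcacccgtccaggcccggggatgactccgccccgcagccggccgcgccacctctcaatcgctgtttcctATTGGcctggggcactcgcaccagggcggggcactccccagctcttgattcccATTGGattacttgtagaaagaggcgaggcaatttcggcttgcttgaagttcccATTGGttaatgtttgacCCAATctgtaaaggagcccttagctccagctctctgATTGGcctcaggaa
Fasn: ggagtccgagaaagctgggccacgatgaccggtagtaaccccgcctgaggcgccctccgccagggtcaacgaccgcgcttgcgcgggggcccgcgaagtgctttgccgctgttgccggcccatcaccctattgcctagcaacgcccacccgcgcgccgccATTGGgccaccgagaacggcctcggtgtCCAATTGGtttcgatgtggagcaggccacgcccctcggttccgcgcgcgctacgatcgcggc
The Pmvk window holds 1 CCAAT match, the Insig2, Hmgcs1 and Fasn windows 3 each, and the Mvk window 5. In Hmgcs1, counting back from the start, the sterol element begins at position -137, between CCAAT matches that begin at -176 and -45.

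The lipid synthesis genes were strongly expressed in these cells. Genes with a mean under 1 FPKM were left out of the test, and over the 29 lipid genes above that level the median gene stood at percentile 94.7 of the level of all 12403 tested genes. The highest was Scd2, a stearoyl-CoA desaturase, at 1059.0 and 1041.6 FPKM in the Luc libraries and 1027.5 and 1028.5 FPKM in the Tox4 libraries. Its relative Scd1 was the lowest, at 0.860 and 0.721 FPKM with Luc esiRNA and 0.995 and 0.621 FPKM with Tox4 esiRNA, and was not tested. Reads could be split wrongly between these close relatives. The lowest tested gene was Hsd17b7, a ketosteroid reductase, at a mean of 4.65 FPKM over the 4 libraries.

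**Figure D1:**
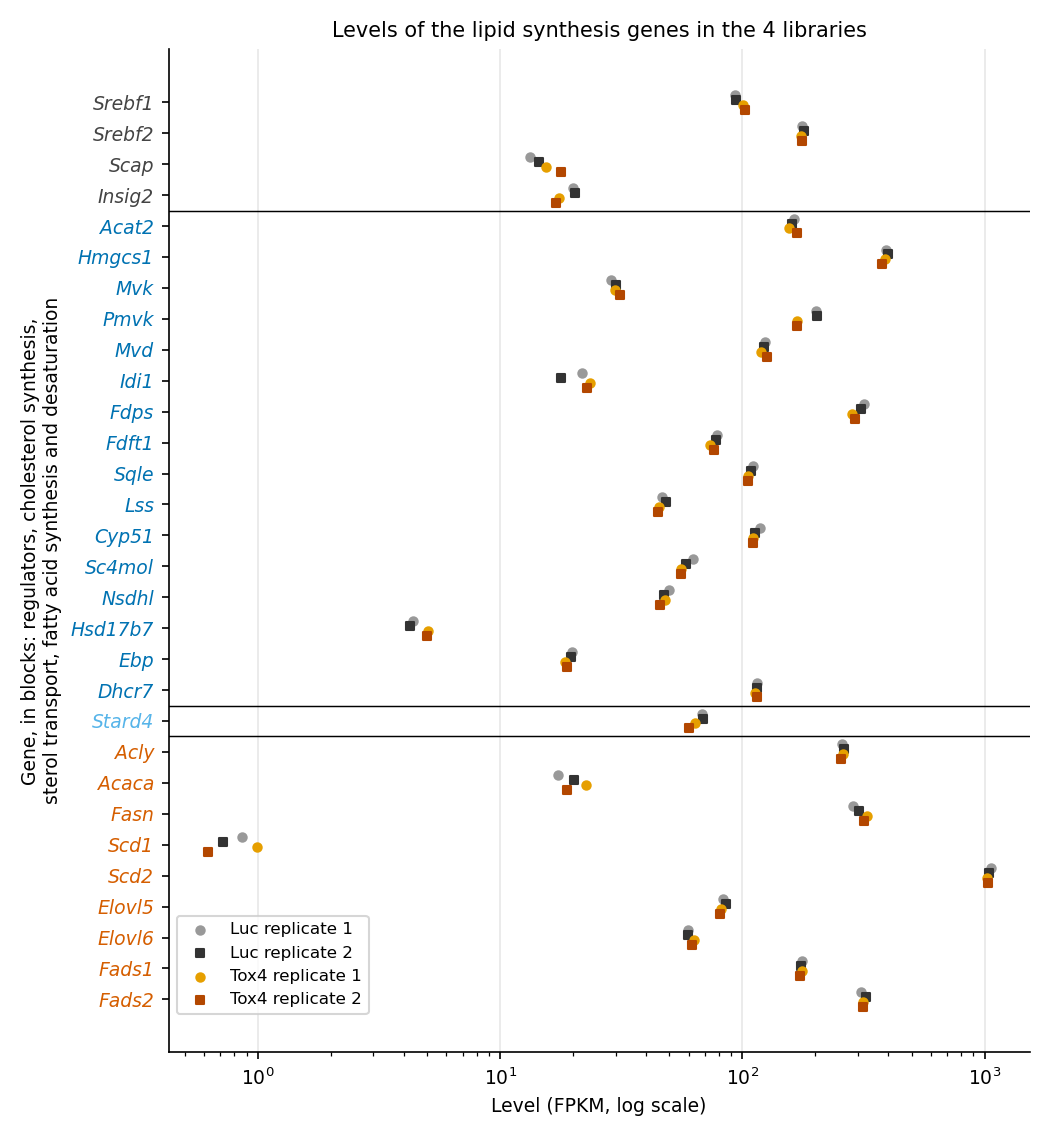
Level of each gene (FPKM, log scale) in every library, with circles for replicate 1 and squares for replicate 2, grey and black for Luc esiRNA and orange and brown for Tox4 esiRNA. Levels run from under 1 FPKM for Scd1 to over 1000 FPKM for Scd2, and the 4 points of most genes lie close together.

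The libraries showed the markers of the labelled cell type. All 8 epiblast genes on a marker list were above a mean of 1 FPKM, with sums of 1229 to 1269 FPKM per library. Past the threshold used below, Sox2 rose from 76.34 and 76.35 FPKM (Luc) to 93.19 and 87.59 FPKM (Tox4). Cldn6 fell past it, from 28.89 and 29.42 FPKM to 18.95 and 18.87 FPKM. Otx2, Dnmt3b, Lin28a and Fgf5 were lower in both Tox4 libraries without passing it. The groups overlapped for Pou5f1 and Nanog, which made up most of the sum. The 3 naive pluripotency genes that were matched summed to 1.95 to 2.73 FPKM, and 6 fibroblast genes to 10.8 to 12.7 FPKM. Of the adipocyte list 2 were matched: Fabp4 at 0.567 to 0.982 FPKM, and Lpl at 12.4 to 13.1 FPKM. The 6 neuroectoderm genes summed to 90.4 and 89.9 FPKM in the Luc libraries and to 104 and 105 FPKM in the Tox4 libraries. Past the threshold, Sox1 rose from 5.28 and 5.57 FPKM to 12.26 and 13.72 FPKM. Fabp7 (5.07 and 4.96 to 10.01 and 9.36 FPKM) and Ncam1 (14.21 and 14.09 to 18.86 and 17.53 FPKM) also rose past it. Nes, the most abundant, was lower, at 52.72 and 51.49 against 49.95 and 49.84 FPKM, and Tubb3 and Pax6 overlapped. The part of these genes in the results below was not tested.

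The lipid synthesis genes differed little between the groups. Of the 29 tested, 1 fell, none rose and 28 were not past the threshold (limma, adjusted p under 0.05). Over all 12403 genes 4.51% were past it, 1.89% as higher and 2.62% as lower, so at this threshold the lipid genes were close to the table. At an unadjusted limma p under 0.05 there were 10 of the 29, a larger share than the 21.6% of all tested genes, which was not matched for level. The median log2 fold change was -0.02, beside -0.0034 over all genes, and the extremes were -0.26 for Pmvk and 0.24 for Scap. For 23 of the 29 the 95% interval lay within 0.25 of 0 on the log2 scale, and for all 29 within 0.5; over all genes these shares were 51.7% and 87.9%. The interval had a median half-width of 0.0944 for the lipid genes and 0.150 for all genes. These fold changes are on the log2(FPKM + 1) scale, which matters little at most of these levels but shrinks the values of low genes. With 0.1 in place of 1 added, Hsd17b7 was at 0.217 and not 0.183.

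**Figure D2:**
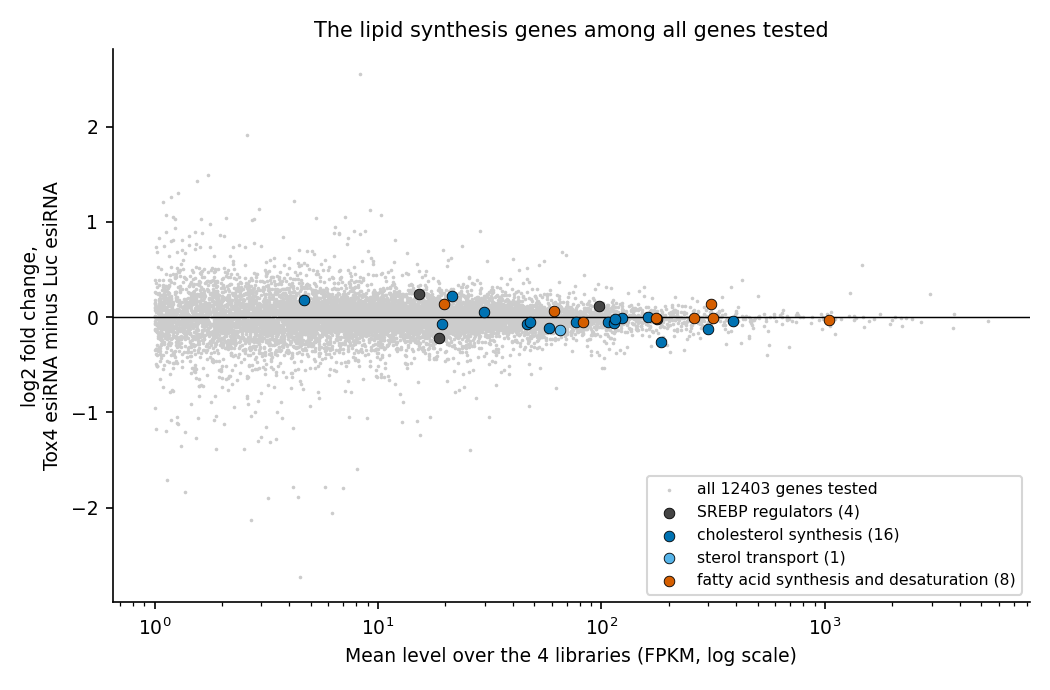
Mean level over the 4 libraries (FPKM, log scale) against the log2 fold change of Tox4 over Luc esiRNA for all 12403 tested genes (grey) and the 29 lipid synthesis genes (coloured by role). Most lipid genes lie in the right part of the cloud, Hsd17b7 lies in its left part (percentile 25.25 of level), and all lie between -0.26 and 0.24.

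Among the regulators, 2 had lower and 2 had higher values in both Tox4 libraries, and none passed the threshold. Srebf2 (chromosome 15, 82147181 to 82205379) was at 176 and 178.9 FPKM with Luc esiRNA and 174.8 and 175.8 FPKM with Tox4 esiRNA. Its log2 fold change was -0.02 (95% interval -0.09 to 0.06, limma adjusted p = 0.807). That interval corresponds to a ratio of Tox4 to Luc libraries between 0.936 and 1.04.

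Srebf1 (chromosome 11, 60199089 to 60222581, minus strand) was at 93.1 and 94.45 FPKM with Luc esiRNA and 100.8 and 102.5 FPKM with Tox4 esiRNA, so that the groups did not overlap. The log2 fold change of 0.12 (SE 0.03, interval 0.04 to 0.20) had a limma adjusted p of 0.112. The level of Srebf1 per that of Srebf2 was 0.529 and 0.528 in the Luc libraries and 0.577 and 0.583 in the Tox4 libraries, a ratio chosen after its values were seen. The files give 1 value per gene, so the forms of Srebf1 cannot be told apart, and 109 bases of its exons are shared with Rai1 on the other strand.

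Insig2, which retains Scap in the endoplasmic reticulum, came nearest to the threshold. It was at 20.1 and 20.3 FPKM in the Luc libraries and 17.5 and 17.0 FPKM in the Tox4 libraries, and its log2 fold change was -0.22 (SE 0.04), for a limma adjusted p of 0.0536. Scap was at 13.3 and 14.5 FPKM with Luc esiRNA and 15.5 and 17.8 FPKM with Tox4 esiRNA. Its log2 fold change of 0.24 had a wider interval, 0.05 to 0.43 (limma adjusted p = 0.143), and was 0.149 without Tox4 replicate 2. Exons of Scap share 985 bases with 5830462I19Rik on the other strand, and without strand in the counting their reads could not be told apart.

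Pmvk fell, the only lipid synthesis gene past the threshold. It encodes phosphomevalonate kinase, which adds the second phosphate to mevalonate, and lies on chromosome 3 from 89454541 to 89469013 (ENSMUSG00000027952, plus strand, GRCm38). Its level was 201.3 FPKM in Luc replicate 1, 203.0 in Luc replicate 2, 167.4 in Tox4 replicate 1 and 168.9 in Tox4 replicate 2, that is, 202 ± 1.20 against 168 ± 1.11 FPKM (SD, n = 2 each). The Tox4 libraries were thus lower by a margin far wider than the spread within either group. On the log2 scale it fell by 0.26 (SE 0.03; 95% interval of the change -0.34 to -0.19), with a limma adjusted p of 0.0146. The fold change kept its size with any library left out (-0.27 to -0.26), while the adjusted p rose to 0.110 without Luc replicate 1 and to 0.116 without Luc replicate 2. It was 0.0786 when limma's intensity trend was left out. In bulk RNA, less RNA per cell and fewer cells of a type cannot be told apart.

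The other 2 genes of the mevalonate phosphorylation and decarboxylation steps were not past the threshold. Mvk, the mevalonate kinase acting just before, was at 28.8 and 30.0 FPKM with Luc esiRNA and 29.9 and 31.1 FPKM with Tox4 esiRNA (interval -0.05 to 0.16). Mvd, the decarboxylase acting just after, was at 124 and 123 FPKM with Luc esiRNA and 119.7 and 126.5 FPKM with Tox4 esiRNA (interval -0.10 to 0.09). For each of these genes the groups overlapped, and the interval of Pmvk lay wholly below that of each. Differences between genes were not tested.

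Of the steps before mevalonate, Acat2, the cytosolic acetoacetyl-CoA thiolase, was at 163 and 160 FPKM with Luc esiRNA and 156 and 167 FPKM with Tox4 esiRNA (log2 change 0.0014, limma adjusted p = 0.989). Hmgcs1, the HMG-CoA synthase and the most abundant sterol gene, was at 390.6 and 398.6 FPKM and at 389.8 and 375.6 FPKM in the same order (-0.04, limma adjusted p = 0.541).

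Between mevalonate and squalene, Fdps and Idi1 had opposite signs. Fdps, the farnesyl diphosphate synthase, was at 318.8 and 307.7 FPKM with Luc esiRNA and 284.6 and 291.5 FPKM with Tox4 esiRNA (log2 change -0.12, SE 0.04, limma adjusted p = 0.124). The groups did not overlap, but 1124 bases of its exons are shared with Gm43738 on the same strand. Idi1, the isopentenyl diphosphate isomerase, was at 21.7 and 17.9 FPKM with Luc esiRNA and 23.5 and 22.9 FPKM with Tox4 esiRNA. Its log2 fold change of 0.22 (SE 0.09; adjusted p by limma 0.215) was 0.35 without Luc replicate 1 and 0.09 without Luc replicate 2, so its size rested on which control was used. Fdft1, the squalene synthase, was at 78.4 and 77.8 FPKM with Luc esiRNA and 73.7 and 76.6 FPKM with Tox4 esiRNA, and shares 774 bases of exon with Ctsb on the other strand.

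From squalene to cholesterol the differences were mostly small. Sqle, the squalene epoxidase, was at 110 and 108 FPKM in the Luc libraries and 105 FPKM in each Tox4 library (log2 change -0.06, limma adjusted p = 0.385). Lss, the lanosterol synthase, was at 46.5 and 48.6 FPKM and at 45.5 and 44.7 FPKM, and Cyp51, the lanosterol demethylase, at 118 and 113 FPKM and at 111 FPKM in each Tox4 library. Sc4mol, the methylsterol oxidase, had the largest negative value of these late steps, from 62.5 and 58.3 FPKM to 55.8 and 55.7 FPKM (-0.11, limma adjusted p = 0.213). It was -0.0625 without Luc replicate 1. Nsdhl and Ebp were at -0.05 and -0.08, and Dhcr7, the reductase of the last step, at -0.02. Hsd17b7 alone had a positive value among them, with 4.35 and 4.23 FPKM against 5.03 and 4.98 FPKM (0.18, limma adjusted p = 0.205).

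Over the 16 cholesterol synthesis genes 12 had a log2 fold change below 0, as had 51.2% of all tested genes, and the median was -0.05. The summed level was 1853.0 and 1832.9 FPKM in the Luc libraries and 1746.2 and 1761.4 FPKM in the Tox4 libraries, a difference of -4.84% between the means. Pmvk made up 38.1% of that difference, Fdps 28.3% and Hmgcs1 13.4%. Without Pmvk and Fdps, left out after their values were seen, the sums of the other 14 were 1332.9 and 1322.2 FPKM against 1294.2 and 1301.0 FPKM, a difference of -2.25%. Stard4, which carries cholesterol between membranes, was at 68.1 and 68.7 FPKM with Luc esiRNA and 63.7 and 60.4 FPKM with Tox4 esiRNA (log2 change -0.14, SE 0.04, limma adjusted p = 0.112).

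**Figure D3:**
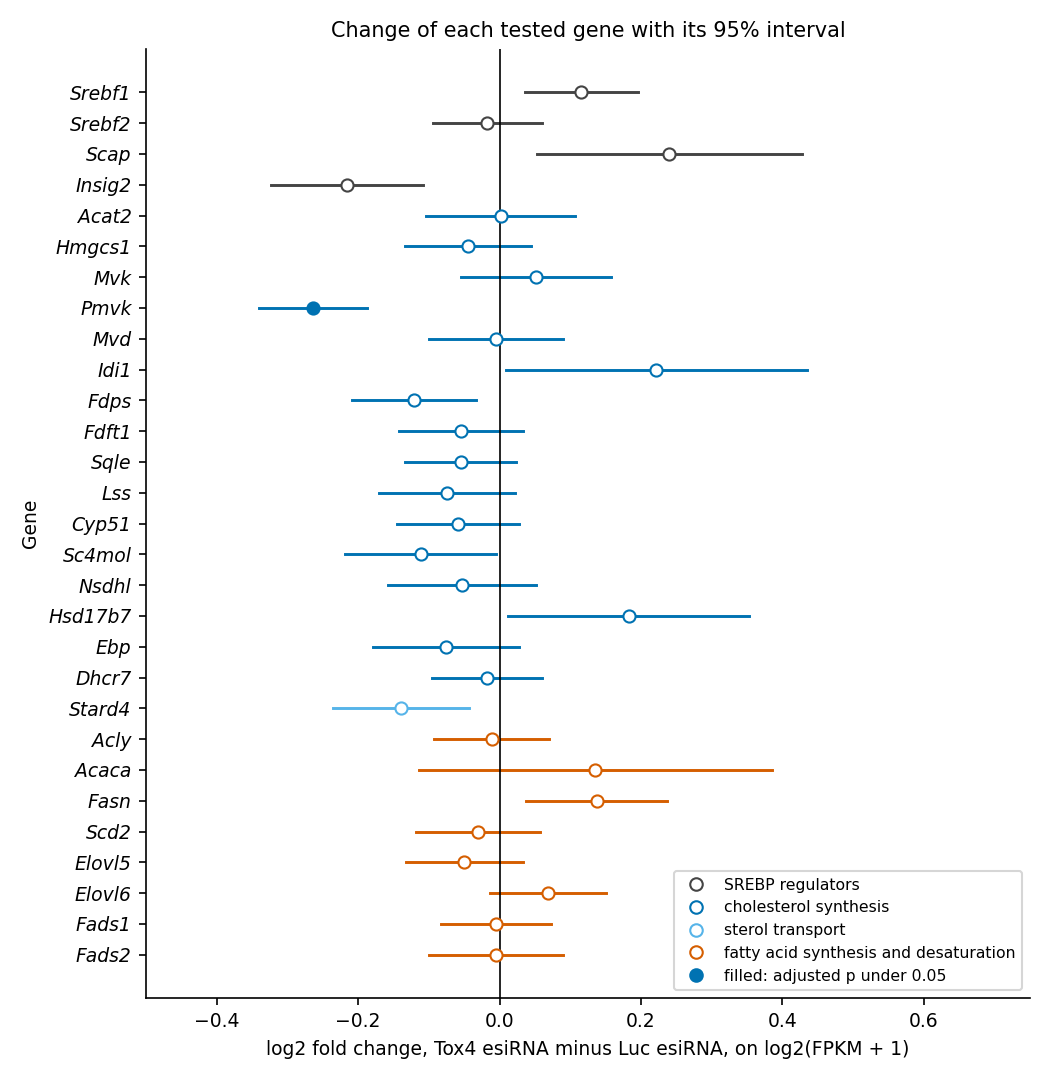
Log2 fold change of Tox4 over Luc esiRNA on log2(FPKM + 1) for each of the 29 tested genes, with bars for the 95% interval from limma; the filled point is past the threshold of adjusted p. Pmvk, at -0.26, is the filled point, and the points of Scd2, Fads1 and Fads2 lie at -0.03, -0.0057 and -0.0046.

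In the fatty acid branch no tested gene passed the threshold. Acaca and Fasn had the largest values. Fasn, the fatty acid synthase, was measured at 285 and 302 FPKM in the Luc libraries and 327 and 318 FPKM in the Tox4 libraries. The groups did not overlap, and the log2 fold change of 0.14 (SE 0.04, interval 0.04 to 0.24) had a limma adjusted p of 0.124. Acaca, the acetyl-CoA carboxylase that supplies Fasn, was at 17.4 and 20.2 FPKM with Luc esiRNA and 22.6 and 18.9 FPKM with Tox4 esiRNA. Its log2 fold change was also 0.14, but its groups overlapped and its interval, -0.11 to 0.39, was the widest of the set. That fold change was 0.0113 without Tox4 replicate 1, 0.0318 without Luc replicate 1, 0.24 without Luc replicate 2 and 0.26 without Tox4 replicate 2. Acly, the citrate lyase that makes cytosolic acetyl-CoA for both branches, was at 258 and 262 FPKM with Luc esiRNA and 261 and 255 FPKM with Tox4 esiRNA (log2 change -0.01, limma adjusted p = 0.889).

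The desaturases and elongases lay nearer to 0. Fads1 and Fads2, which desaturate polyunsaturated fatty acids, had log2 fold changes of -0.0057 and -0.0046, with intervals of -0.08 to 0.07 and -0.10 to 0.09. Fads1 was at 176.3 and 174.6 FPKM with Luc esiRNA and 176.1 and 173.4 FPKM with Tox4 esiRNA, and Fads2 at 308 and 325 FPKM and at 316 and 315 FPKM. Scd2 was at -0.03 (interval -0.12 to 0.06). Elovl6, which elongates saturated fatty acids, was at 59.4 and 59.8 FPKM with Luc esiRNA and 63.0 and 62.1 FPKM with Tox4 esiRNA (0.07, limma adjusted p = 0.307). Elovl5, which elongates polyunsaturated ones, was at 83.1 and 85.4 FPKM and at 81.5 and 81.2 FPKM (-0.05, limma adjusted p = 0.460).

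Set side by side, the median log2 fold change was -0.05 over the 16 cholesterol synthesis genes and -0.0051 over the 8 tested fatty acid genes, a difference of -0.0489. That difference was -0.0277 without Luc replicate 1, -0.0696 without Luc replicate 2, and -0.0432 and -0.0581 without Tox4 replicate 1 and 2. In single libraries, the median deviation of the cholesterol genes from the Luc mean was 0.01 and -0.01 with Luc esiRNA and -0.05 in each Tox4 library. For the fatty acid genes it was -0.02 and 0.02 in the Luc libraries and 0.01 and -0.01 in the Tox4 libraries. The cholesterol minus fatty acid difference of these medians was 0.0251 and -0.0251 in the Luc libraries and -0.0581 and -0.0433 in the Tox4 libraries. By this measure the Luc libraries lay about as far apart as the groups did. The cholesterol medians of the groups did not overlap and the fatty acid medians did, while those over all tested genes did not overlap either, at -0.0006 and 0.0006 with Luc esiRNA and -0.0019 and -0.0039 with Tox4 esiRNA. The summed level of the fatty acid genes was 2247.3 and 2272.2 FPKM with Luc esiRNA and 2276.2 and 2253.7 FPKM with Tox4 esiRNA. These are descriptions of chosen genes, without a test.

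**Figure D4:**
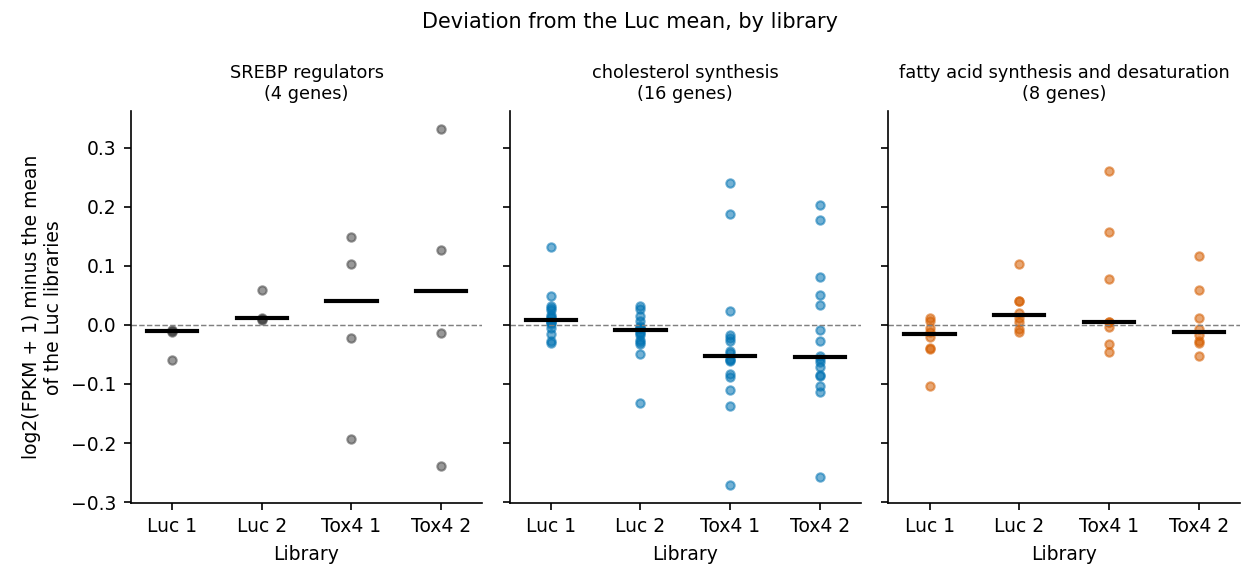
Deviation of each tested gene from the mean of the Luc libraries on log2(FPKM + 1), in each library, for the regulators, the cholesterol synthesis genes and the fatty acid genes; the black bar is the median. The cholesterol bar is at -0.05 in each Tox4 library, and the fatty acid bar stays within 0.02 of 0.

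Values of the groups did not overlap for 21 of the 29 genes, 6 of them higher and 15 lower with Tox4 esiRNA. Over all tested genes the share was smaller, 52.0%, with 25.3% higher and 26.7% lower. The share of the lipid genes was the larger on the lower side alone. In the cholesterol branch 10 genes were lower and 2 higher without overlap, and in the fatty acid branch 2 and 2. A model of the counts found more of these differences. Read numbers behind the FPKM values were worked back as the smallest whole numbers that fit, so a common factor per gene may be missing. Limma-voom on them called 3 of the 29 lipid genes as higher (Srebf1, Scap and Fasn). It called 4 as lower (Pmvk, Insig2, Fdps and Stard4). Over all genes the shares were 6.30% and 5.85%, both smaller than those of the lipid genes. The limma-voom adjusted p was 1.73e-04 for Pmvk, 0.00157 for Fasn, 0.00986 for Scap, 0.0139 for Insig2, 0.0198 for Stard4, 0.0210 for Srebf1 and 0.0401 for Fdps. The lipid genes stood at high levels (median percentile 94.7), with a median limma interval half-width of 0.0944 against 0.150 for all genes. The shares over all genes in this paragraph were not matched for level, so an excess over them cannot be assigned to the lipid genes as such.

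Other genes of lipid metabolism were taken from 6 lists, to be read against the 4.51% of all genes past the threshold. Among 10 other cholesterol synthesis enzymes none passed and the median log2 fold change was -0.0014. Of these, Sc5d, a sterol desaturase, was at 34.2 and 38.5 FPKM with Luc esiRNA and 33.3 and 31.2 FPKM with Tox4 esiRNA (-0.17, limma adjusted p = 0.214), and Tm7sf2, a sterol reductase, was at 0.13. Among 14 genes of SREBP processing and turnover other than the regulators above none passed (median -0.0084), with Erlin1 and Faf2 at 0.10 each.

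Of 19 tested genes of sterol uptake, export and storage, Apoe fell and 18 did not pass. Apoe, the apolipoprotein that carries lipids between cells, went from 58.5 and 57.9 FPKM in the Luc libraries to 37.4 and 38.7 FPKM in the Tox4 libraries, and its log2 fold change was -0.60 (SE 0.04), for a limma adjusted p of 0.00263. That call held with each library left out (adjusted p up to 0.0304).

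None of 22 other genes of fatty acid synthesis, elongation and desaturation passed (median -0.03), with Thrsp at 0.27 and Ptpla at -0.25, and none of 14 glycerolipid synthesis genes did (median -0.07), with Cds1 at -0.23 and Agpat3 at -0.19. Of 16 genes on a fatty acid oxidation list 1 rose and 1 fell. Cpt1c, the member of the carnitine palmitoyltransferase 1 family found in neural tissue, rose from 37.0 and 38.0 FPKM to 44.5 and 46.1 FPKM (0.27, SE 0.04, limma adjusted p = 0.0261). Its relative Cpt1a did not pass, at 2.96 and 2.67 FPKM against 2.62 and 2.54 FPKM (-0.09, limma adjusted p = 0.629). Acadvl, the very long chain acyl-CoA dehydrogenase of mitochondria, fell from 18.4 and 17.5 FPKM to 13.7 and 13.9 FPKM (-0.35, SE 0.05, limma adjusted p = 0.0217). Both calls were lost without Luc replicate 1 (limma adjusted p of 0.157 and 0.146) and without Luc replicate 2 (0.116 and 0.0965) and without limma's intensity trend (0.0895 and 0.0672), and that of Cpt1c also without Tox4 replicate 2 (0.0526).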

How the data were processed

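The authors deposited FPKM values, fragments scaled to gene length and depth, for each library in 1 table of 15429 genes; 4 files of single libraries repeat it. Per the submitters' processing notes the tools and build were CASAVA 1.8, STAR 2.3.0e and GRCm38.p1; which counting program and annotation were used, and whether by strand, is not given in the sources used here. Symbols were taken from the table and positions and exon overlaps from GENCODE on GRCm38, in which 98.7% of identifiers were found. The 12403 genes at a mean of 1 FPKM or more were tested on log2(FPKM + 1) with limma 3.58.1 in R 4.3.3 (intensity trend, two-sided, Benjamini-Hochberg over all tested genes, threshold 0.05, 2 residual and 4.01 prior degrees of freedom, no covariate), checked on simulated data. The smallest whole read numbers that fit the values (100% of genes, relative tolerance 1e-11, up to a common factor per gene) came to 19008803 and 14998194 in the Luc libraries and 14739221 and 12778044 in the Tox4 libraries, 97.7% of the depth implied by the scaling. Their chi-square per degree of freedom between replicates was 1.53 (Luc) and 1.79 (Tox4), so that no library was taken as a copy. They served only limma-voom with TMM scaling. Alternatives were other pseudocounts, filters, scalings and variance models, a replicate block and leaving out each library.

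The genes, lists and tests were chosen with earlier results of these data known. Named were all genes of the set, Tox4, and from each of 6 further lipid gene lists up to 6 genes past the threshold, or the largest 2 where none passed. Some items are not reported here.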

Additional observations from a re-analysis of the deposited data

How the results depend on the processing

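All 29 tested lipid genes kept their side of the threshold with pseudocounts of 0.1 and 0.5 FPKM, median-centred libraries, no filter on low values and the replicate block. The sign of the fold change was kept by 24 of them under each alternative run for them (12, and 11 for Hsd17b7, which is under the minimum of 5 FPKM); the other 5 (Acat2, Mvd, Acly, Fads1 and Fads2) were near 0. Lipid genes called lower numbered 2 with a minimum mean of 5 FPKM (Pmvk and Insig2), 0 without an intensity trend and 4 with limma-voom, which called 3 as higher. With 1 library left out they numbered 0 to 1 lower and 0 higher. Over all genes, 234 were higher and 325 lower. These counts were 146 and 202 with no filter, 365 and 476 with a minimum of 5 FPKM, 33 and 45 without the trend, 782 and 725 with limma-voom, and 27 to 176 and 34 to 296 with 1 library left out, lowest without either Luc library. With a lone library in a group, that library is assumed to vary like the other group's. The median log2 fold change ranged from -0.0548 to -0.0365 for cholesterol synthesis and from -0.0115 to 0.018 for the fatty acid genes with 1 library left out. The cause of these changes was not tested. With the replicate block 222 genes were higher and 334 lower, and 1 lipid gene was lower. Same-numbered libraries did not deviate together over the genes (correlation -0.04). The labels do not say whether the replicate numbers pair the samples, and this correlation cannot show it. The smallest whole read numbers that fit the tested lipid genes ran from 149 to 111557 per library. The true counts of a gene may be a multiple of these. Counting error is largest for genes with the fewest true reads, and the 2 libraries a group also limit the precision.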
